A study of Mus musculus with 6 samples.

Results

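The oxidative phosphorylation genes described here are the nuclear genes whose symbols mark them as parts of the respiratory chain and the ATP synthase, with their named assembly factors. They were taken by symbol: every gene named by a probe with a single symbol starting with Nduf, Sdha, Sdhb, Sdhc, Sdhd, Uqcr, Cyc1, Cox4, Cox5, Cox6, Cox7, Cox8 or Atp5, with the probe of highest mean kept where a gene had several. This gave 94 of 19929 genes on the array, of which 43 carry the prefix of complex I, 8 that of complex II, 9 that of complex III, 17 that of complex IV and 17 that of complex V. A filter on dim genes left 92 of them among the 13950 genes tested, and the assembly factor gene Ndufaf6 and the isoform gene Cox7b2 were too dim. Prefix and complex do not always match. The 7 Ndufaf and 4 Sdhaf genes encode assembly factors, Cox7a2l encodes a factor that joins complexes into supercomplexes, and the product of Ndufa4 is now counted as a subunit of complex IV.

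RNA came from CD8 T cells that carry the transgenic AI4 antigen receptor, which recognises a beta cell antigen, sorted from pancreas with an antibody to CD8 and the MimA2/H-2Db tetramer. Mice of both groups had the C57BL/6.H2g7/g7 background. AI4 mice developed type 1 diabetes. Rip-B7xAI4 mice, which also express the inhibitory ligand B7x from the rat insulin promoter, were resistant to it, so the transgene and the disease state cannot be told apart. Each group had 3 arrays, titled as biological replicates, of cells from pooled pancreata, and neither the age of the mice nor the number in a pool is given in the sources used here.

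In the respiratory chain, complex I oxidises NADH, complex II oxidises succinate, complex III passes the electrons from ubiquinol to cytochrome c and complex IV passes them to oxygen. Complexes I, III and IV pump protons across the inner mitochondrial membrane, and complex V, the ATP synthase, makes ATP from the return flow. CD8 T cells enlarge this machinery when they leave the resting state and divide, and the nuclear genes of the subunits are transcribed under shared factors such as nuclear respiratory factor 1 and GA-binding protein.

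The array AI4 replicate 1 stood apart from the rest. Over all genes tested its correlation with the other arrays was 0.725 to 0.797, against 0.802 to 0.914 among those others, as a description. The mean log2 level of CD8 T cell markers ranged from 9.88 to 10.45 over the AI4 arrays and from 9.78 to 10.46 over the others. Averaged over 19 genes, myeloid markers stood at 8.82 on Rip-B7xAI4 replicate 1, 6.16 on replicate 2 and 8.58 on replicate 3, and between 5.95 and 6.48 on the AI4 arrays. Cell division genes averaged between 5.59 and 6.50 on AI4 arrays and between 7.12 and 8.30 on Rip-B7xAI4 arrays. In RNA of a whole sort, more RNA per cell and a different mix of cells cannot be told apart.

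Of the 94 genes, 77 matched the RefSeq promoter table of build GRCm38.p6, which gives 250 bases before and 50 after each start. The table shows runs of letters that occurred more often in this family than in genes at large, and that the choice by symbol did not use. Most of the 77 genes lacked each of them. A palindrome of 10 bases, the core that nuclear respiratory factor 1 recognises, occurred in the windows of 7 of the 77 genes (9.09%), against 1.07% of all 27025 genes in the table and 1.93% of the genes tested. CCGGAAG, the core of GA-binding protein and other ETS factors, occurred on either strand in 21 (27.3%), against 9.93% of all genes and 17.0% of those tested. AAGATGGCG, read by YY1, occurred in 7 (9.09%), against 1.64% and 2.91%, and TCAAGGTCA, read by estrogen-related receptor alpha, in 2 (2.60%), against 0.466% and 0.381%. The shorter TGCGCA, which can overlap the palindrome, occurred in 20 (26.0%), against 8.79% and 13.8%. A match is a run of letters and does not show binding.

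The stretches before the start of 5 of the genes with the palindrome are printed 5′ to 3′ because they show where it lies, with its letters in capitals. Ndufa11 lies on the plus strand at chr17:56717682-56717761 and Ndufaf4 on the plus strand at chr4:24897963-24898082. Cox6a1 (chr5:115348959-115349128), Atp5k (chr5:108434400-108434479) and Atp5g2 (chr15:102671048-102671127) lie on the minus strand. Each printed stretch ends at the base before the start.
Ndufa11: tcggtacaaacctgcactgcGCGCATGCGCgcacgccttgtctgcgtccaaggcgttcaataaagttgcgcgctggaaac
Ndufaf4: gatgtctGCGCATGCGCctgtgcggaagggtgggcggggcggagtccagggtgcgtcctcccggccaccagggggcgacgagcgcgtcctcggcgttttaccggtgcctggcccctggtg
Cox6a1: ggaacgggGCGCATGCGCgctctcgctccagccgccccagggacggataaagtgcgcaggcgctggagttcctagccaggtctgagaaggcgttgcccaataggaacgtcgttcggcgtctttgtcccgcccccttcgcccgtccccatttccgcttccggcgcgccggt
Atp5k: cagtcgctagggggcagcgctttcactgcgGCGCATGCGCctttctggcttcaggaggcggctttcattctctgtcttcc
Atp5g2: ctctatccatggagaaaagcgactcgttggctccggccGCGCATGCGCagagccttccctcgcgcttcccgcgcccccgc
The match starts 60 bases before the start in Ndufa11, 50 in Atp5k, 42 in Atp5g2, 113 in Ndufaf4 and 162 in Cox6a1. In Ndufaf5 and Uqcrc1 it lies after the start. The log2 differences between the groups for these 7 genes, described below, ran from -0.10 in Uqcrc1 to 0.74 in Ndufa11.

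Oxidative phosphorylation genes stood on the whole above their AI4 level in the cells from Rip-B7xAI4 pancreas, by small amounts, and none passed the test. Differences are log2 values, Rip-B7xAI4 minus AI4, given with the standard error of limma. Of the 92 genes tested, 66 had a positive and 26 a negative difference, with a median of 0.32 on the log2 scale, whereas 39.0% of all genes tested were positive and their median was -0.10. At an adjusted p of 0.05 in limma, 0 of the 92 passed (background 0.00717%, 1 gene of 13950), and the lowest adjusted p was 0.382. With 1 array left out, that background count was 2 when it was AI4 replicate 1, 22 when it was Rip-B7xAI4 replicate 2 and 0 for each of the other 4, and the count among the 92 was 0 in each of these fits. At an unadjusted p under 0.05, 12 of the 92 (13.04%) were higher, against a background of 5.56% of all genes, and 1 was lower, against 3.17%. Leaving out Rip-B7xAI4 replicate 1, or replicate 2 of that group, brought the 12 to 7 in either case, with backgrounds of 3.49% and 5.84% in these fits.

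Every Rip-B7xAI4 array was higher than every AI4 array for 22 of the 92 genes (23.9%), against 5.99% of all genes tested, and lower for 2, Cox7a1 and Cox8c (2.17%), against 11.9%. Genes at large differed more often in this direction the brighter they were. Among the 3488 brightest genes tested, which held 72 of the 92, the median difference of all genes was 0.17 and 13.04% had all Rip-B7xAI4 arrays on top, while 20 of the 72 did (27.8%) and their median was 0.38. Among the 3488 dimmest the median of all genes was -0.17. After quantile normalization, which gives every array the same spread of values, all Rip-B7xAI4 arrays were on top for 5 of the 92 (5.43%), against 5.53% of all genes. The median over the 92 was then 0.12, and 2 were higher at an unadjusted p under 0.05, against a background of 4.61%. With cyclic loess, which evens out differences that depend on level, 3 were higher (background 5.78%) and the median was 0.18. The share of genes called was therefore above the background as deposited and not after either rescaling. All 22 genes still had a positive difference after both, from 0.077 to 1.77 after quantile normalization and from 0.081 to 1.77 after cyclic loess.

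**Figure D1:**
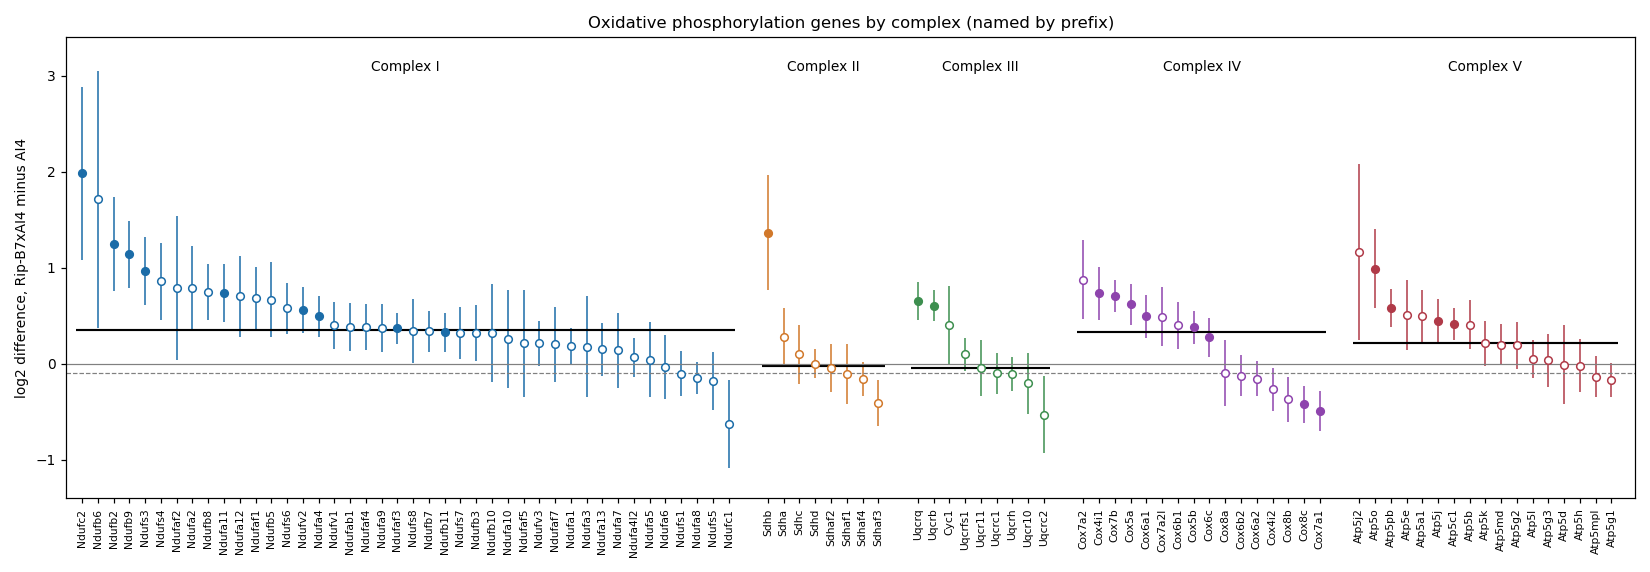
Log2 difference (Rip-B7xAI4 minus AI4) of the 92 tested genes, grouped by the complex their symbol names, with bars for the standard error of limma, filled points where the arrays of the groups do not overlap, black lines for the median of a complex and a dashed line for the median of all genes tested. Complex I has 37 of 42 points above 0, while the medians of complexes II and III lie at -0.02 and -0.05.

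**Figure D2:**
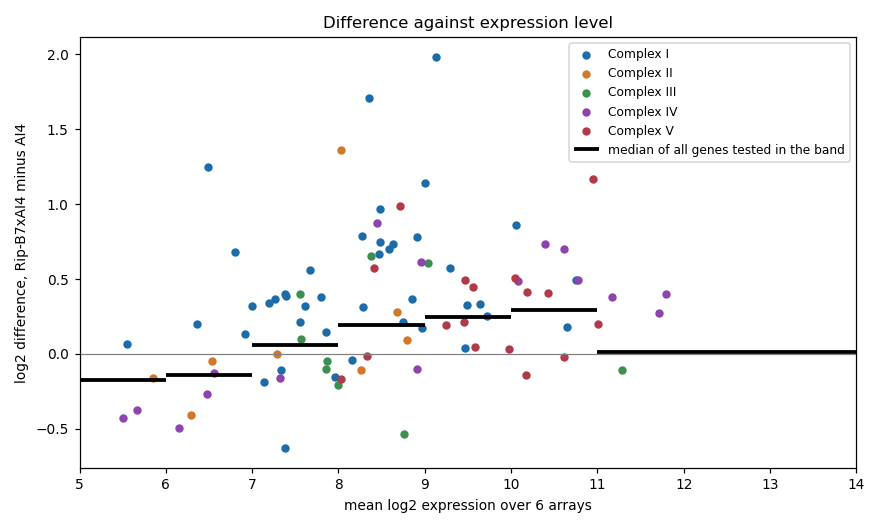
Log2 difference of each tested gene of the set against its mean log2 expression over 6 arrays, with thick lines for the median of all genes tested in bands of level. The lines climb from -0.17 between 5 and 6 to 0.29 between 10 and 11 and stand at 0.015 above 11.

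Complex I had the widest spread of the 5 complexes between genes and between AI4 arrays. Of its 42 genes tested, 37 had a positive difference, with a median of 0.35. All Rip-B7xAI4 arrays were on top for 9 (21.4%, against 5.99% of all genes tested). Its core subunits, which carry the flavin and the iron-sulphur clusters or help bind ubiquinone, had a median of 0.37 over 6 genes, and its 30 accessory subunits and isoforms one of 0.33. Ndufs3, a core subunit next to the ubiquinone site, stood at 7.21, 8.23 and 8.57 in AI4 and at 9.13, 8.95 and 8.82 in Rip-B7xAI4. It differed by 0.96 ± 0.35 (SE), adjusted p = 0.545 in limma, and by 0.57 without AI4 replicate 1. Ndufv2, which with Ndufv1 forms the NADH-oxidising tip, stood at 6.91, 7.64 and 7.60 in AI4 and at 7.94, 8.08 and 7.81 in Rip-B7xAI4. In both genes AI4 replicate 1 was the lowest array, and the groups did not overlap. Ndufv1 differed by 0.40 ± 0.25 and Ndufs1, the largest core subunit, by -0.11 ± 0.23, both with overlapping arrays.

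Among the accessory subunits, Ndufb9 had the smallest p. It stood at 7.63, 8.81 and 8.86 in AI4 and at 9.61, 9.70 and 9.40 in Rip-B7xAI4, a difference of 1.14 ± 0.35 (SE) with adjusted p = 0.492 in limma. Without AI4 replicate 1, the low array, it differed by 0.73. Ndufb8 and Ndufa11, both in the membrane arm, differed by 0.75 ± 0.29 and 0.74 ± 0.31, and Ndufa11 differed by 1.01 without AI4 replicate 1. The other Ndufa11 probe gave 0.89, with overlapping arrays. Ndufb2 stood at 4.70, 6.13 and 6.76 in AI4 and at 7.20, 7.02 and 7.12 in Rip-B7xAI4, which are tight while the AI4 values are not. Ndufa4, the complex IV subunit with a complex I name, stood at 10.40, 10.62 and 10.49 against 11.13, 11.24 and 10.62. Its groups just failed to touch, and it differed by 0.49 ± 0.21. Its paralog Ndufa4l2, known from the response to low oxygen, differed by 0.064 ± 0.21. The lowest difference of the complex was that of Ndufc1, at -0.63 ± 0.46, where AI4 replicate 1 stood at 8.78 and the other 5 arrays between 6.95 and 7.37, and it was -0.089 without that array.

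The tested assembly factors of complex I all had a positive difference, from 0.20 to 0.79, and only Ndufaf3 had arrays without overlap. Not all stayed positive without AI4 replicate 1, where the lowest difference was -0.098. Ndufaf3, an early factor of the ubiquinone module, stood at 7.13, 7.03 and 7.10 in AI4 and at 7.30, 7.63 and 7.42 in Rip-B7xAI4, with no overlap and a difference of 0.37 ± 0.17 (SE). Ndufaf1, of the membrane arm, differed by 0.68 ± 0.32 with Rip-B7xAI4 replicate 2 among the AI4 values. Ndufaf4, whose promoter is printed above, differed by 0.38 ± 0.24. The other 26 tested genes with a complex I prefix differed by -0.19 in Ndufs5 to 0.86 in Ndufs4, 23 were positive, and in 1 of them, Ndufb11, the groups did not overlap. Ndufb11, an accessory subunit encoded on the X chromosome, stood at 8.96, 9.48 and 9.52 in AI4 and at 9.56, 9.73 and 9.64 in Rip-B7xAI4. Its difference of 0.32 ± 0.20 was 0.14 without AI4 replicate 1, and negative when that array was left out and the rest rescaled. The other Ndufb11 probe gave 0.15, with overlapping arrays.

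The low values of AI4 replicate 1 fell mostly on complex I. On that array 14 of the 92 genes lay more than 1 log2 unit below both other AI4 arrays (15.2%, against 4.97% of all genes tested) and 5 lay more than 1 above both (5.43%, against 2.38%). Of the 14, 11 belong to complex I and 1 each to complexes II, III and V. No gene of the set lay that far below its group on AI4 replicates 2 and 3 or on Rip-B7xAI4 replicates 1 and 2, and 2 did on Rip-B7xAI4 replicate 3, Cox7a2 and Ndufaf2. The genes named in this paragraph were picked after their values were seen. Ndufb6, an accessory subunit of the membrane arm, stood at 4.21 on AI4 replicate 1, against 9.46 and 8.84 on the other AI4 arrays and 9.18, 10.06 and 8.40 in Rip-B7xAI4. Its difference of 1.71 ± 1.34 (SE) became 0.063 without that array. Atp5j2, a small membrane subunit of complex V, stood at 8.04 there, against 11.64 and 11.44, and its difference of 1.16 ± 0.92 became -0.0020. Ndufc2, a membrane arm subunit, stood at 5.93, against 9.01 and 9.49, and its difference of 1.98 ± 0.90 became 0.88, with Rip-B7xAI4 at 9.52, 10.46 and 10.40. Over the 14 genes the median difference went from 0.91 to 0.24, and 10 of the 14 stayed positive. On the high side of AI4 replicate 1 were Ndufa3, Ndufaf5, Ndufc1, Uqcrc2 and Atp5d. Gabpa, which encodes the DNA-binding subunit of GA-binding protein and belongs to the list of regulators below, also stood low there, at 6.17 against 8.79 and 8.63.

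Leaving out AI4 replicate 1 lowered the median over the 92 genes from 0.32 to 0.22 and did not lower the number called. Then 14 were higher at an unadjusted p under 0.05 (background 4.83%), of which 8 were among the 12 called on all arrays, 66.7% of the 12 and 57.1% of the 14. The 22 genes without overlap differed by 0.090 to 1.01, and by the way they were picked none could turn negative in that fit. Of all 92 genes, 12 turned sign, among them Ndufs1, Cyc1, Uqcr10, Cox8a, Atp5d, Atp5h and Atp5j2. Variation among AI4 arrays was larger for this set than for genes at large: the median standard deviation over AI4 arrays was 0.37 and over Rip-B7xAI4 arrays 0.25, against 0.26 and 0.25 over all genes tested.

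**Figure D3:**
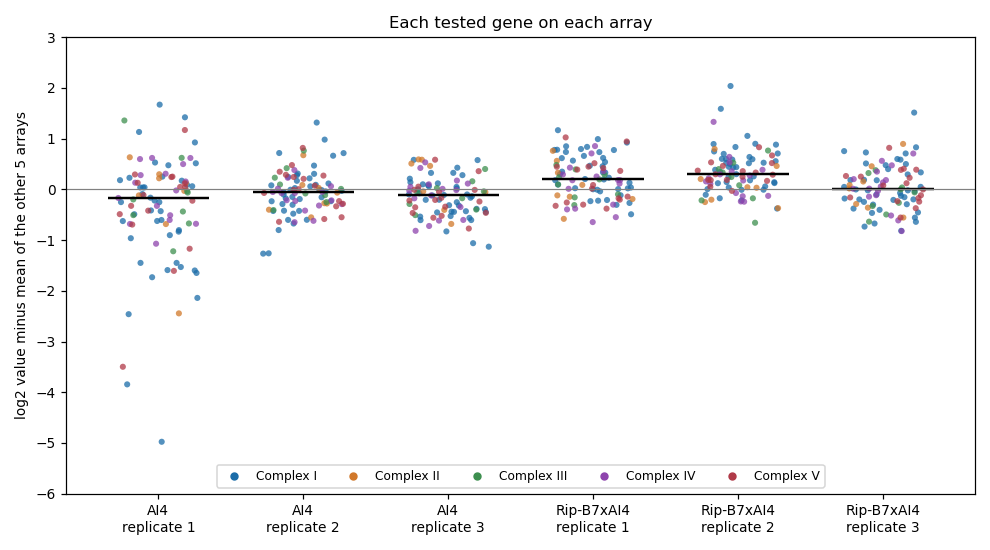
Log2 value of each of the 92 tested genes on each array minus its mean over the other 5 arrays, coloured by complex, with black lines for the median of the array. AI4 replicate 1 has a tail of low points, mostly of complex I, that the other 5 arrays lack.

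In complex II, Sdhb alone of 8 genes had arrays that did not overlap (12.5%, against 5.99% of all genes tested with Rip-B7xAI4 on top). The complex has 4 subunits, which oxidise succinate in the citric acid cycle and feed ubiquinone. Sdhb, the iron-sulphur subunit, stood at 5.99, 8.59 and 7.46 in AI4 and at 8.66, 8.69 and 8.77 in Rip-B7xAI4. The Rip-B7xAI4 arrays were nearly equal and AI4 replicate 2 stood just below them, and the difference was 1.36 ± 0.60 (SE), or 0.68 without AI4 replicate 1. Sdha, the flavoprotein, differed by 0.28 ± 0.30, and the membrane anchors Sdhc and Sdhd by 0.096 ± 0.31 and -0.00094 ± 0.15. The assembly factors Sdhaf1, Sdhaf2, Sdhaf3 and Sdhaf4 differed by -0.11, -0.047, -0.41 and -0.16, and the other Sdhaf4 probe gave 0.37. Over all 8 genes the median was -0.02.

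Of the 9 genes of complex III, 2 had all Rip-B7xAI4 arrays on top (22.2%, against 5.99% of all genes tested), both for small subunits. Uqcrb, a small subunit near the ubiquinone site, stood at 8.67, 8.83 and 8.70 in AI4 and at 9.23, 9.47 and 9.30 in Rip-B7xAI4. It differed by 0.60 ± 0.16 (SE), adjusted p = 0.443 in limma, and all 3 of its probes had Rip-B7xAI4 on top, at 0.60, 0.66 and 0.64. Uqcrq, another small subunit that binds cytochrome b, stood at 7.82, 8.39 and 7.96 in AI4 and at 8.71, 8.71 and 8.70 in Rip-B7xAI4, a difference of 0.65 ± 0.20 with adjusted p = 0.484. Both genes had tight Rip-B7xAI4 arrays above every AI4 array. The core subunits Uqcrc1 and Uqcrc2 differed by -0.10 ± 0.21 and -0.53 ± 0.40, and AI4 replicate 1 held the highest Uqcrc2 value, 9.89, without which Uqcrc2 differed by -0.098. The redox subunits, which carry electrons through the complex, gave 0.40 ± 0.41 for Cyc1 (cytochrome c1) and 0.098 ± 0.17 for Uqcrfs1, the Rieske iron-sulphur protein. For Cyc1, AI4 replicate 1 stood at 6.54 against 7.64 and 7.89 on the other AI4 arrays, and the difference was -0.0058 without it. The small subunits Uqcrh, Uqcr10 and Uqcr11 differed by -0.11, -0.21 and -0.045, and the other Uqcr11 probe gave 0.22. Over the 9 genes the median was -0.05.

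Complex IV separated by isoform, and the types of isoform also differed in level. The 9 tested genes of widely expressed subunits had a median difference of 0.49, and 8 of them were positive. In 6 of the 9 all Rip-B7xAI4 arrays were on top (66.7%), against 5.99% of all genes tested and 13.04% of the 3488 brightest. All 9 were among those brightest genes. Their median level was 10.61, and all genes tested between 10 and 11 had a median difference of 0.29. The 6 tested genes of tissue-restricted isoforms, known from muscle, lung or testis, had a median of -0.32 and 0 were positive. That median was -0.17 without AI4 replicate 1, again with 0 positive, and -0.12 with cyclic loess added, where 1 was positive. These 6 were dim, and genes at that level leaned the same way: among the 3488 dimmest genes tested 16.3% of all genes had all Rip-B7xAI4 arrays below AI4. The groups of genes were not tested against each other. Type of isoform and level went together here, and the part of level was not tested.

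Cox7b, a small subunit of complex IV, had the smallest p of the whole set. It stood at 10.34, 10.35 and 10.10 in AI4 and at 10.83, 11.06 and 11.01 in Rip-B7xAI4, with the highest AI4 array well below the lowest Rip-B7xAI4 array. The difference was 0.70 ± 0.17 (SE), with adjusted p = 0.382 in limma and 0.107 to 0.968 over the alternatives. It was 0.74 without AI4 replicate 1 and 0.44 after quantile normalization, and its other probe gave 0.69. Cox5a and Cox5b encode subunits on the matrix side. Cox5a stood at 8.82, 8.78 and 8.36 in AI4 and at 9.21, 9.05 and 9.55 in Rip-B7xAI4, a difference of 0.62 ± 0.22. Cox5b stood at 10.74, 11.12 and 11.07 against 11.32, 11.41 and 11.34, a difference of 0.38 ± 0.17. In both, the groups did not overlap.

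Where complex IV has paired isoforms, the common one was the one with the positive difference, except in subunit 8. There the common one had a small negative difference, within its standard error. Cox4i1, the common form of the subunit that senses ATP, stood at 9.49, 10.20 and 10.38 in AI4 and at 10.48, 10.92 and 10.86 in Rip-B7xAI4, a difference of 0.73 ± 0.27 (SE). Its lung isoform Cox4i2 differed by -0.27 ± 0.22. Cox6a1 differed by 0.49 ± 0.23 and its muscle isoform Cox6a2 by -0.16 ± 0.18, and Cox6b1 by 0.40 ± 0.24 and the testis isoform Cox6b2 by -0.13 ± 0.21. Cox7a2 stood at 7.88, 8.20 and 7.94 in AI4 and at 9.15, 9.55 and 7.93 in Rip-B7xAI4, so replicate 3 stayed among the AI4 arrays. The muscle isoform Cox7a1 stood at 6.56, 6.46 and 6.16 in AI4 and at 5.61, 6.04 and 6.05 in Rip-B7xAI4. Its difference of -0.49 ± 0.21 made it the 1 gene called lower without adjustment (adjusted p = 0.566 in limma). In subunit 8, the common Cox8a differed by -0.097 ± 0.35, and by 0.14 without AI4 replicate 1, its highest array. There the muscle isoform Cox8b differed by -0.37 ± 0.23 and the testis isoform Cox8c by -0.43 ± 0.19, the last with no overlap. Cox6c, a small membrane subunit, stood at 11.21, 11.76 and 11.75 in AI4 and at 11.86, 11.86 and 11.83 in Rip-B7xAI4, a difference of 0.27 ± 0.20 that was 0.090 without AI4 replicate 1. It turned negative when that array was left out and cyclic loess applied. The supercomplex factor Cox7a2l differed by 0.49 ± 0.30, and its other probe gave 0.066.

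In complex V, the stalk that holds the catalytic head had a median of 0.51 over 4 genes, the head one of 0.42 over 5, the other membrane subunits 0.20 over 5 and the proton-carrying c ring 0.034 over 3. Without AI4 replicate 1 the median of the membrane subunits was -0.0020. Each of these groups held genes of both signs, and they were not tested against each other. Atp5pb, of the stalk, stood at 7.83, 8.13 and 8.40 in AI4 and at 8.78, 8.56 and 8.75 in Rip-B7xAI4, a difference of 0.58 ± 0.20 (SE) with adjusted p = 0.530 in limma. Its other probe gave 1.39, so its size is uncertain while its direction is the same. Atp5o and Atp5j, also of the stalk, differed by 0.99 ± 0.42 and 0.44 ± 0.23 with no overlap, and Atp5h by -0.021 ± 0.27. For Atp5o, AI4 replicate 1 stood at 7.38, and without it the difference was 0.57.

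In the catalytic head, Atp5c1, the central shaft, stood at 10.002, 9.95 and 9.99 in AI4 and at 10.51, 10.49 and 10.19 in Rip-B7xAI4, a difference of 0.42 ± 0.17 (SE). AI4 arrays for this gene were nearly equal, and the groups did not overlap. The catalytic subunit gene Atp5b differed by 0.41 ± 0.25 and its partner Atp5a1 by 0.49 ± 0.27, where Rip-B7xAI4 replicate 1 stood at 10.25 and replicate 3, at 9.26, among the AI4 values. Atp5d, of the shaft, differed by -0.014 ± 0.41, with AI4 replicate 1 at 9.31 above all other arrays, and by 0.47 without it. The 3 genes of the c ring, Atp5g1, Atp5g2 and Atp5g3, encode the same mature protein behind different import signals and differed by -0.17, 0.19 and 0.034. The other 5 tested genes of the complex, Atp5e, Atp5k, Atp5l, Atp5md and Atp5mpl, differed by -0.14 to 0.51, 4 of them positive, and all had overlapping arrays. After quantile normalization the median of complex V was -0.02, from 0.21 as deposited.

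**Figure D4:**
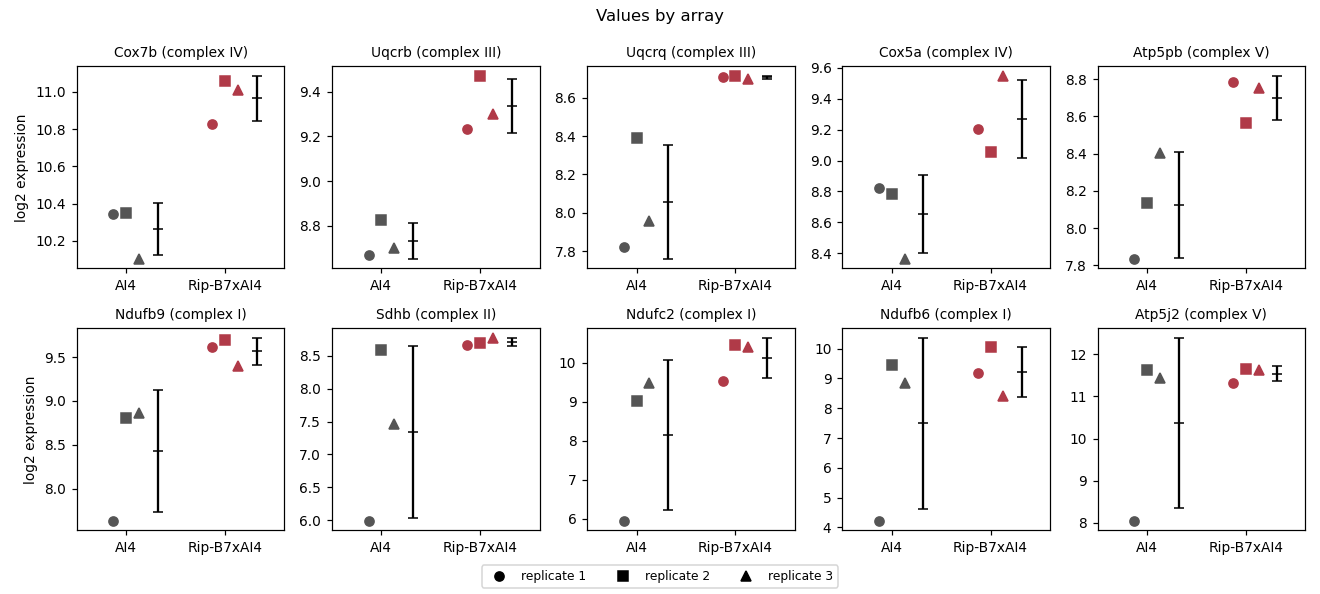
Log2 expression of 10 genes on each array, by group, with a marker shape for each replicate number and a bar for the mean and standard deviation (n = 3) of a group, each panel on its own axis. In the upper row and in Ndufb9, Sdhb and Ndufc2 the groups do not overlap, and in Ndufb9, Sdhb, Ndufc2, Ndufb6 and Atp5j2 the AI4 replicate 1 circle lies far below the rest.

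Of the 18 genes with several probes, 15 had probes of 1 sign and 3 of both signs, with a median range of 0.15 between probes. Those of both signs were Atp5h, Sdhaf4 and Uqcr11. Many of these genes have near-identical processed copies in the genome that can share probe signal, so their levels are uncertain. Cox7c and Ndufb4 had only probes that also name another gene and were not analysed here.

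**Figure D5:**
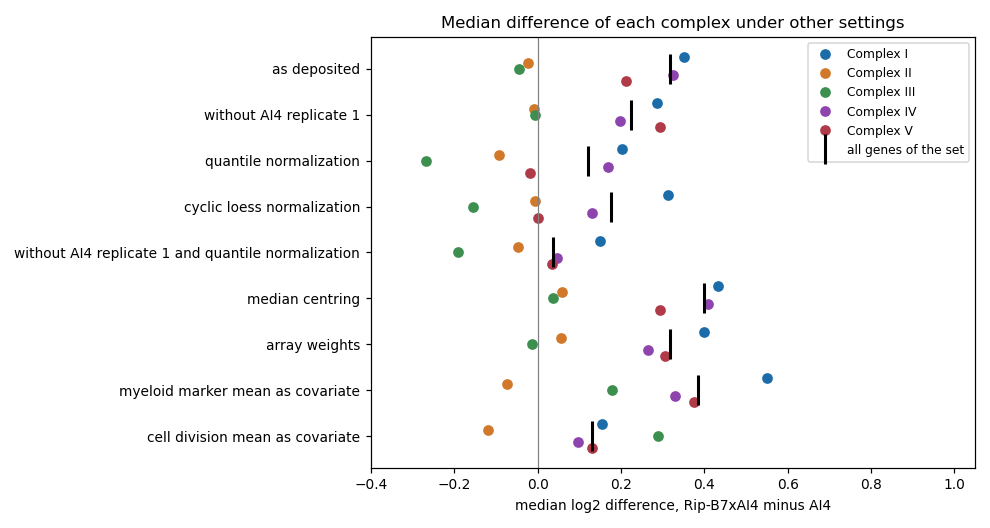
Median log2 difference (Rip-B7xAI4 minus AI4) of each complex and of all tested genes of the set, one line for each of 9 settings. Complex I lies to the right of 0 in each, from 0.15 without AI4 replicate 1 and with quantile normalization to 0.55 with the myeloid covariate, while complexes II and III lie on both sides of 0.

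The level of myeloid markers and of cell division genes differed between the same arrays. When the averaged myeloid level entered the fit as a covariate, the median over the 92 genes was 0.38 and 6 were higher at an unadjusted p under 0.05, against a background of 3.01%. When the averaged cell division level did, it was 0.13, with 10 higher (background 2.47%) and 4 lower (background 4.02%). The part of the myeloid or cell division level in the result was not tested. The cell division level did not overlap between the groups, so a fit with it cannot separate it from group, and its estimates are uncertain. By array the median level of the 92 genes stood at 7.94, 8.55 and 8.35 among AI4 arrays and at 8.93, 8.88 and 8.57 among Rip-B7xAI4 arrays, where AI4 replicate 2 and Rip-B7xAI4 replicate 3 nearly met.

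Of the other genes of the mitochondrial pathway, from fixed lists, 0 passed an adjusted p of 0.05 in limma. Most of these lists held genes of both signs. Among assembly factors, carriers and citric acid cycle genes more were positive than negative, where 39.0% of all genes tested were positive. Of 2 mitochondrially encoded subunit genes on the array, COX2 differed by -0.079 ± 0.18 (SE) and ND3 by -0.025 ± 0.18. Cycs, the cytochrome c that carries electrons between complexes III and IV, differed by 0.91 ± 0.33. Of 29 assembly factors outside the set, 19 were positive, 2 were higher and 1 lower at an unadjusted p under 0.05, against 5.56% and 3.17% of all genes. Cox17, a copper chaperone for complex IV, stood at 9.96, 10.48 and 10.50 in AI4 and at 11.62, 11.80 and 11.42 in Rip-B7xAI4. Its difference of 1.30 ± 0.22 (adjusted p = 0.187) was larger than that of any widely expressed complex IV subunit tested. Surf1, another factor of complex IV, differed by 0.56 ± 0.17 and Cox15, of heme A synthesis, by -0.66 ± 0.26.

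Of 13 tested carriers, channels and electron-entry genes, 10 were positive and 2 called higher without adjustment, where 5.56% of all genes were. Etfb, a subunit of the flavoprotein that brings electrons from fatty acid oxidation, stood at 7.34, 8.24 and 7.53 in AI4 and at 9.45, 9.59 and 9.69 in Rip-B7xAI4, a difference of 1.88 ± 0.26 (SE) with adjusted p = 0.157 in limma. Gpd2, the mitochondrial glycerol phosphate dehydrogenase that feeds ubiquinone, differed by 2.08 ± 0.50, and Slc25a5, an ADP/ATP exchanger, by 0.60 ± 0.28. The groups did not overlap for Etfb and Gpd2. They did not overlap the other way for Etfdh, named after its values were seen, which encodes the enzyme that takes electrons from the Etfb flavoprotein and passes them to ubiquinone. It stood at 7.44, 7.63 and 8.26 in AI4 and at 7.42, 7.24 and 7.17 in Rip-B7xAI4, a difference of -0.50 ± 0.25. Of 18 genes of the citric acid cycle and pyruvate entry, 11 were positive and 2 called higher without adjustment (background 5.56%). The called genes were Sucla2, of succinyl-CoA ligase, at 1.10 ± 0.30 and Mdh2, malate dehydrogenase, at 0.64 ± 0.24. Dld, a subunit shared by the pyruvate and oxoglutarate dehydrogenases, differed by 0.88 ± 0.41.

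Regulators of mitochondrial biogenesis showed no common direction. Of 16 tested, 8 were positive, 1 was called higher without adjustment (background 5.56%) and 0 lower (background 3.17%). That gene was Tfb1m, a methyltransferase of mitochondrial ribosomal RNA, at 0.85 ± 0.29 (SE, adjusted p = 0.520 in limma). Polrmt, the mitochondrial RNA polymerase, differed by -0.38 ± 0.17 and Gabpa by 1.39 ± 0.71, or 0.54 without AI4 replicate 1.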

How the data were processed

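Expression was measured on 6 Affymetrix arrays. Affymetrix Expression Console is named in the submitters' processing notes, without a version or algorithm. The deposited table holds the authors' normalized values, which by their range are log2 values, for each probe. Array medians were 5.94 to 6.10, so values were used as deposited. Of 28325 probes, 21760 had 1 gene symbol in the platform annotation, 1621 several and 4944 none. Keeping the probe of highest mean gave 19929 genes, and the 30% with the lowest mean (below 5.471) were not tested. All 94 genes of the set matched a RefSeq gene ID.

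Groups came from the titles. All genes were fitted together with limma 3.58.1 (lmFit, eBayes) in R 4.3.3, with Benjamini-Hochberg adjustment over 13950 genes and two-sided tests. The script was tested on simulated data. The number of arrays limits the precision, and no measure of background was used. Genes and lists were chosen with earlier results of these data known. Genes named were, per complex, up to 5 of smallest p and the lowest difference, the succinate dehydrogenase genes, isoform families, fixed core subunits, and up to 3 per further list, of which some are summarised. Atp5h, Atp5j, Cox6c, Ndufb11, Ndufs4, Ndufs5, the Ndufaf genes and the remaining small subunits of complex III were named after their values were seen. Alternatives were a replicate block, left-out arrays, other scalings and filters, probe choices, variance models, array weights and covariates.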

Additional observations from a re-analysis of the deposited data

How the results depend on the processing

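No gene of the set passed an adjusted p of 0.05 in any of 22 settings. Counts higher and lower at an unadjusted p under 0.05 were 12 and 1 as reported (5.56% and 3.17% of all genes). When 1 array was left out they were 7 to 14 and 0 to 1, against 3.49% to 6.85% and 1.97% to 4.42% of all genes. The higher count, with the share of all genes in the same fit, was 2 with quantile normalization (4.61%), 3 with cyclic loess (5.78%), 19 with median centring (6.52%), 6 with trend and robust (5.10%), 22 with array weights (8.97%), 5 with Rip-B7xAI4 replicates 1 and 3 both out (3.67%), and 6 with the myeloid covariate (3.01%). The lower count was 0 with the replicate block, in these scalings and with the 50% filter. It was also 0 with every probe on its own and with the myeloid covariate. Backgrounds for lower genes in these fits were 0.846% to 3.68%. The lower count was 2 with trend and robust (4%) and 4 with the cell division covariate (4.02%). Over all genes, 1 passed as reported, 0 to 22 when 1 array was left out, 0 with the replicate block, with Rip-B7xAI4 replicates 1 and 3 both out, with either covariate, and 38 with array weights.

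The median of complex V was -0.018 with quantile normalization, 0.0017 with cyclic loess and 0.42 without Rip-B7xAI4 replicates 1 and 3, and that of complex III was 0.29 with the cell division covariate. Among settings added after seeing the data, leaving out AI4 replicate 1 with cyclic loess gave 6 genes of all tested past the adjusted limit, 7 higher (4.87% of all genes) and 0 lower of the set, a complex IV median of 0.047, Cox6c at -0.088 and Ndufb11 at -0.043. With quantile normalization in its place these were 4, 4 (4.41%) and 0, complex IV 0.047, Ndufb11 -0.10 and the median of the set 0.037. The cause was not tested. Without Rip-B7xAI4 replicates 1 and 3, the fit lends the spread of AI4 to the single array left. The alternative pseudocount does not apply to log2 values. For the 25 genes of the set without overlap, with an unadjusted p under 0.05, or both, the other 521 of 524 values kept their direction. These genes were picked for that separation or p in the same data. Genes without overlap cannot turn sign when 1 array is left out, so the count is no check on their direction. Among all 92, 12 turned sign without AI4 replicate 1.

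With the replicate number as a block, 11 genes of the set were higher without adjustment (5.53% of all genes). Same-numbered arrays did not deviate together (r = -0.082, 0.056 and -0.221). No pairing is stated for the numbers, and with 3 arrays per group these values cannot exclude one. With 3 arrays per group and small differences, a p that misses the limit does not show that a gene did not differ.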

Other observations

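Other large protein families, counted in the same fit, had medians above and below that of the oxidative phosphorylation genes. Proteasome subunits had a median difference of 0.50 over 38 tested genes, with 35 positive and all Rip-B7xAI4 arrays above AI4 in 12 (31.6%, against 5.99% of all genes). Mitochondrial ribosomal proteins, which translate the mitochondrially encoded subunits, had a median of 0.010 over 75, with 39 positive and 4 without overlap on the high side (5.33%). Cytosolic ribosomal proteins had a median of -0.11 over 55, with 9 positive. After quantile normalization these medians were 0.30, -0.07 and -0.20, against 0.12 for the oxidative phosphorylation genes. With the cell division covariate the order was another: -0.083 for the proteasome, with 17 of 38 positive, -0.19 and 0.18 for the ribosomal families, and 0.13 for the oxidative phosphorylation genes. The cell division level did not overlap between the groups, so that fit cannot separate it from group, and its medians are uncertain. Differences between the families were not tested.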
